A study of Homo sapiens with 4 samples.

Results

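H/ACA snoRNAs and small Cajal body RNAs (scaRNAs) were taken from a beta-catenin RNA immunoprecipitation (RIP-Seq) study in HT-29 and CaCo-2, established lines of human colon adenocarcinoma. They were chosen by name: every listed transcript whose gene name starts with SNORA or SCARNA, whatever its annotated class, leaving out names that start with SNORA71. This gave 62 of the 9880 transcripts listed for HT-29 (48 SNORA and 14 SCARNA) and 21 of the 11943 listed for CaCo-2 (17 SNORA and 4 SCARNA). Over both lines they carry 62 gene names. The annotated class is snoRNA for 60 of the HT-29 transcripts and 20 of the CaCo-2 ones, and lincRNA for the other 2 and 1.

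The series asked which RNAs associate with beta-catenin, which carries the Wnt signal into the nucleus and switches on target genes there. There were 4 groups of 1 library each: the HT-29 RIP, the HT-29 input, the CaCo-2 RIP and the CaCo-2 input. The cells had no treatment. The RIP libraries came from nuclear lysate precipitated with a beta-catenin antibody on protein G beads, the input libraries from no antibody, and all 4 were made with a TruSeq RNA kit. No precipitation with a control antibody is among the libraries analysed here, so RNA held by beta-catenin and RNA held by the beads or by any antibody cannot be told apart. Because each group is a single library, values carry no error between replicates, and neither RIP against input nor HT-29 against CaCo-2 was tested.

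The deposited tables hold only transcripts higher in the RIP, with a lowest fold of 1.5 in both lines. The direction of every value below is therefore fixed by the listing, and a transcript that is not listed was not analysed here. Of 12 colon epithelial marker genes, 7 were listed in HT-29 (CDH1, KRT8, KRT18, KRT19, KRT20, LGALS4 and VIL1), with summed levels, over the highest transcript of each gene, of 109 FPKM in the RIP and 37.0 in input. For CaCo-2 the table holds 5 of the 12, with sums of 64.9 and 31.9 FPKM. Fibroblast and endothelial markers were listed in neither line. CaCo-2 listed 1 of 4 leukocyte markers, CD68, and HT-29 listed 0.

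H/ACA RNAs fold into a pair of hairpins joined by a hinge that carries the H box, and end in a tail with the ACA box. Each hairpin can hold a pocket that pairs with a target RNA and places one of its uridines for conversion to pseudouridine by dyskerin (DKC1), which works with GAR1, NHP2 and NOP10. SNORA RNAs guide this change mainly in ribosomal RNA in the nucleolus. SCARNA RNAs are held in Cajal bodies and guide changes in spliceosomal snRNAs; the name covers H/ACA RNAs, C/D RNAs such as SCARNA2, which guide 2′-O-methylation, and RNAs with both kinds of domain, such as SCARNA6 and SCARNA12. Most human members are cut from introns of host genes.

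RefSeq sequence was at hand for stretches of SNORA34, SNORA84 and SCARNA3, because an annotated microRNA hairpin lies across each of these genes. They are shown since all 3 were listed in both lines and SNORA34 carried one of the best-supported values. The capitals mark the H box (ANANNA) in the middle of the RNA and, where the stretch reaches it, the ACA box before the 3′ end. The SNORA34 stretch (named SNORA2C in RefSeq; chr12:48654444-48654530, minus strand, GRCh38.p14) begins 12 bases before the RNA and covers its first 75 of 137 bases. The SNORA84 stretch (chr9:92292458-92292547, minus strand) shares 87 of the 133 bases of the RNA, and the SCARNA3 stretch (chr1:175968370-175968479, minus strand) 83 of 144.

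SNORA34: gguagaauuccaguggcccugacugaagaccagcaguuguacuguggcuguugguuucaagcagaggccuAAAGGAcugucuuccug

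SNORA84: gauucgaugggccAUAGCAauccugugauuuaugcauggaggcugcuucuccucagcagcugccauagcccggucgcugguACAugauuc

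SCARNA3: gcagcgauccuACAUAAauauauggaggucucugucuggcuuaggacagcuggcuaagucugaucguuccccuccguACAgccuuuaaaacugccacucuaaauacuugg

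Counted from the first base of each RNA, the H box begins at position 59 in SNORA34, 60 in SNORA84 and 73 in SCARNA3. The ACA box begins at position 128 in SNORA84 and 139 in SCARNA3, in both 3 bases before the end of the RNA, and the 2 boxes do not overlap. The search was on the transcribed strand. Of 442 other human microRNA hairpins of 87 to 110 bases, 36.9% hold ANANNA starting in the middle of the hairpin, so the H box letters alone are common. ACA stands 3 bases before the end of the hairpin in 1.13%. The boxes marked here were placed by the middle and end of the RNA, not of the hairpin. These rates therefore do not measure how unusual the marked boxes are. UGAG, the letters of the Cajal body box, was found 0 times in the 3 stretches and in 48.2% of those hairpins. The stretch of SCARNA3 leaves out the first 61 bases of the RNA, so nothing is said of the box there.

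In HT-29 the H/ACA and Cajal body RNAs stood well above input in the RIP. Input was above 0 for 43 of the 62 transcripts, and in 39 of these 43 (90.7%) the RIP was at least 2-fold higher, where 35.5% of all 6743 listed transcripts with input above 0 were. Their RIP levels ran from 16.5 to 5214 FPKM with a median of 485, against 3.08 to 775 FPKM with a median of 84.2 in input. The median fold was 5.90 (quartiles 2.84 and 10.1), against 2.46 for all such listed transcripts. On the log2 scale after adding 1 FPKM to both sides, the scale on which 2-fold is counted, the medians were 2.55 and 0.83. Because adding 1 FPKM lowers the ratio of weak transcripts, the share of all listed transcripts is 66.5% on the plain fold, where the members' count is still 39. Where RIP and input both reach 10 FPKM, 38 of 42 members passed, against 48.5% of all 301, with median folds of 6.14 and 2.03.

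**Figure D1:**
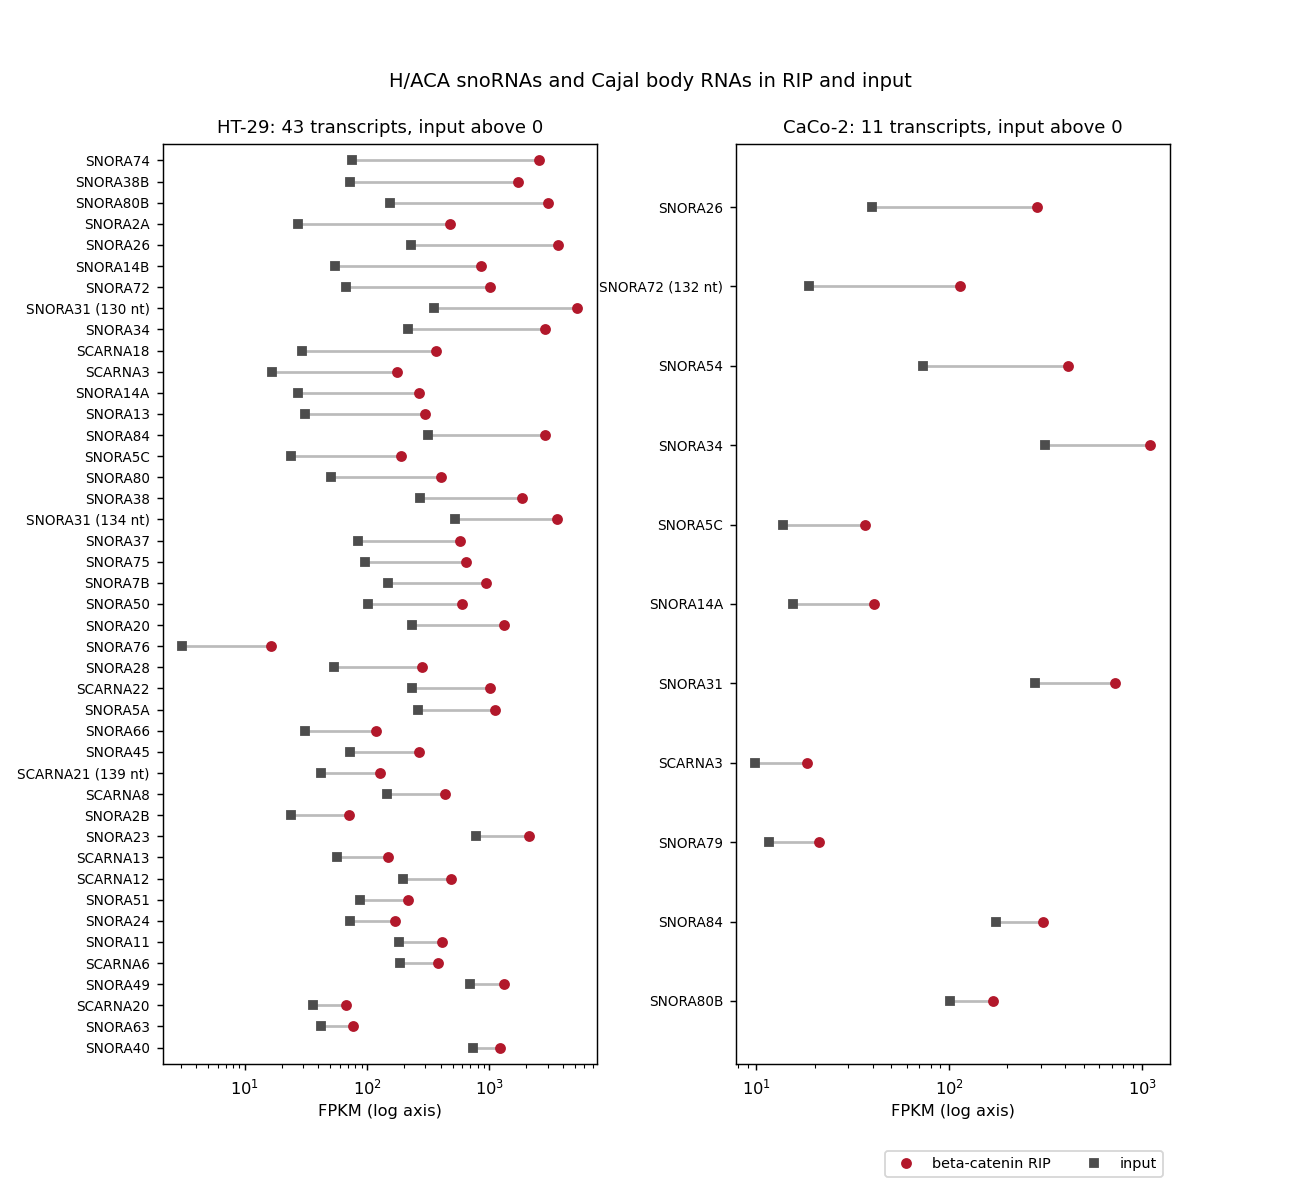
FPKM in the RIP (circles) and in input (squares) of each member with input above 0, 1 transcript per line and 1 library per symbol, on a log axis, sorted by fold with the highest at the top. In HT-29 SNORA74 leads at 2547 FPKM in the RIP against 75.2 in input, and SNORA40 is last at 1222 against 729; the x axes of the 2 panels differ.

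FPKM of RNAs this short is hard to read, since a single sequenced fragment is worth many FPKM. Among listed transcripts that span 120 to 150 nucleotides, values in each library are whole multiples of a smallest step that depends on the span, to within 0.05 of a step. Counting values over 3 FPKM, this held for 84 of 87 in the HT-29 RIP, 49 of 52 in the HT-29 input, 46 of 46 in the CaCo-2 RIP and 13 of 13 in the CaCo-2 input. At spans with more than 1 value it held for 80 of 81, 45 of 46, 37 of 37 and 5 of 5. The match is partly given by construction there too. The step was taken from the span's own values, choosing the one that made the most of them whole. The 5 CaCo-2 input values lie at spans of 134 and 137 nucleotides, so they are a weak check. The step is read here as 1 fragment; if it were a multiple of 1 fragment, all counts below would be larger by that factor. The HT-29 step was 63.3 FPKM in the RIP and 75.9 in input at 122 nucleotides, and 17.7 and 16.8 at 143. The CaCo-2 step was 31.6 and 39.6 at 122 nucleotides, and 9.15 and 9.88 at 143. The HT-29 RIP step thus falls 3.57-fold over a span that grows 1.17-fold, so FPKM does not put members of different length on one scale, and fragments are given beside it.

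**Figure D2:**
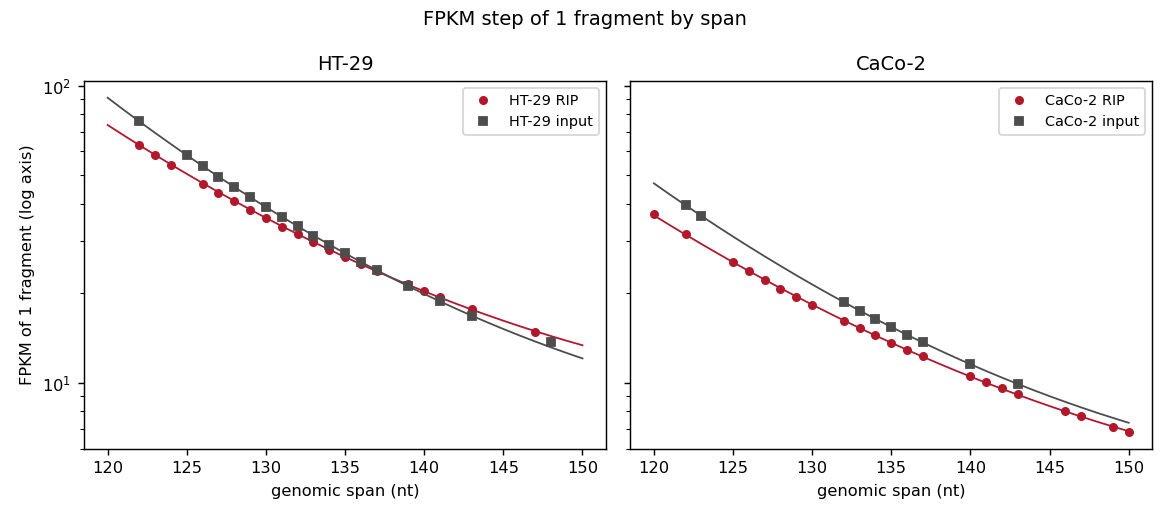
The FPKM of 1 fragment (log axis) against genomic span in nucleotides for the RIP (circles) and input (squares) of each line; points are steps taken from the listed values and lines the smooth curve through them. In all 4 libraries the step falls steeply with span, in the HT-29 RIP to 17.7 FPKM at 143 nucleotides against 63.3 at 122.

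Fragments were recovered for both libraries of 54 HT-29 members. The 37 of them with input above 0 held 1414 RIP fragments (95% Poisson interval 1341 to 1490) and 180 input fragments (155 to 208). A member had a median of 20 RIP fragments (2 to 146) and of 2 input fragments (1 to 27). Input rested on 1 fragment for 11 of the 37 and on at most 4 for 26, and 6 members held 743 (52.5%) of the RIP fragments. The exact 95% interval of the fold, which covers counting error only, lay above 1 for 26 of the 37 and above 2 for 17.

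The strongest RIP signals were SNORA RNAs with 51 to 146 fragments. SNORA74 (chromosome 5, 138611869 to 138612009, plus strand, hg19) was at 2547 FPKM in the RIP and 75.2 in input, or 131 and 4 fragments. Its fold of 33.9 (95% counting interval 12.9 to 126) was the largest among members of HT-29 with input above 0. The table holds 2 transcripts named SNORA31. The one of 130 nucleotides (chromosome 13, 45911615 to 45911744, minus strand) lies inside a listed transcript of TPT1, and was at 5214 FPKM in the RIP and 351 in input, or 146 and 9 fragments. The other, of 134 nucleotides (45910449 to 45910582, minus strand), was at 3591 and 525 FPKM, or 128 and 18 fragments. Their folds were 14.9 (7.62 to 33.2) and 6.84 (4.16 to 11.9), and the 2 intervals overlap. How reads were shared between RNAs this similar in name was not analysed here.

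SNORA80B (chromosome 2, 10586840 to 10586975, minus strand) was at 3036 FPKM in the RIP and 153 in input, or 121 and 6 fragments, a fold of 19.8 (8.85 to 55.1). SNORA34 (chromosome 12, 49048165 to 49048301, minus strand) was at 2878 and 215 FPKM, or 121 and 9 fragments, a fold of 13.4 (6.81 to 29.9). SNORA84 (chromosome 9, 95054743 to 95054875, minus strand) was at 2854 and 313 FPKM, or 96 and 10 fragments, a fold of 9.13 (4.75 to 19.6). The counting intervals of these 3 folds overlap.

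SNORA26 (chromosome 4, 53579416 to 53579537) was at 3670 FPKM in the RIP and 228 in input; at 122 nucleotides this is 58 fragments against 3. SNORA38B (chromosome 17, 65736785 to 65736915) had the second highest fold, 23.7 (6.23 to 201), on 51 fragments against 2, or 1710 and 72.3 FPKM. SNORA38 was at 1861 FPKM in the RIP and 269 in input, on 59 and 8 fragments. Other high folds also rest on thin input. SNORA2A reached 17.5 on 18 fragments against 1, SNORA14B 15.6 on 32 against 2, and SNORA72 15.0 on 32 against 2. SNORA23, at 182 nucleotides outside the range where fragments were recovered, was at 2095 FPKM in the RIP and 775 in input, a fold of 2.70.

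The lowest folds of the HT-29 members were near the listing limit. SNORA40 was at 1222 FPKM in the RIP and 729 in input, or 30 and 16 fragments, a fold of 1.68 (0.885 to 3.29). SNORA49 was at 1330 and 689 FPKM, or 53 and 27 fragments, a fold of 1.93 (1.19 to 3.19). Both had more input fragments than any member of the leading group except the 134-nucleotide SNORA31, and their low folds rest on more input than most. SNORA63 and SCARNA20 had 2 RIP fragments and 1 input fragment each, with folds of 1.81 and 1.86 whose intervals reach below 1.

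**Figure D3:**
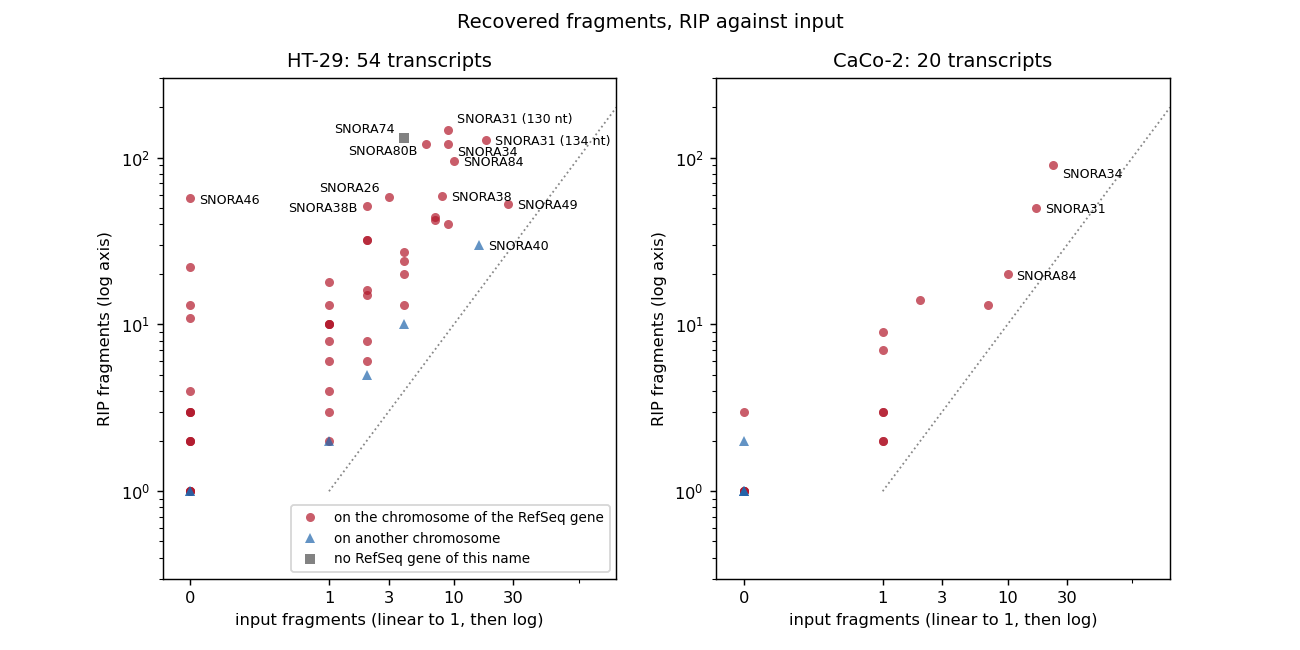
RIP fragments (log axis) against input fragments (linear to 1, then log) for members with fragments recovered in both libraries; the dotted line is equality, and symbols show whether the transcript lies on the chromosome of the RefSeq gene of its name. HT-29 has a group of SNORA RNAs with 96 to 146 RIP fragments against 4 to 18 in input, while the highest member of CaCo-2 has 90 against 23.

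The Cajal body RNAs had lower folds than the SNORA RNAs in HT-29, though the 2 sets were not compared by a test. With input above 0, 8 of 9 SCARNA transcripts passed 2-fold, with a median fold of 3.02, against 31 of 34 SNORA transcripts with a median of 6.75. SCARNA22 was at 1007 FPKM in the RIP and 234 in input, or 20 and 4 fragments, a fold of 4.31 (1.44 to 17.3). SCARNA18 was at 365 and 29.2 FPKM (13 and 1 fragments), SCARNA3 at 177 and 16.8 (10 and 1), SCARNA8 at 436 and 145 (13 and 4) and a SCARNA21 transcript on chromosome 17 at 129 and 42.3 (6 and 2). The 3 longer scaRNAs, of 265 to 275 nucleotides, have no recovered fragments. SCARNA12, with a C/D and an H/ACA domain, was at 485 FPKM in the RIP and 197 in input. SCARNA6, of the same mixed type, was at 379 and 185 FPKM, and SCARNA13 at 147 and 56.7. Their folds lay between 2.05 and 2.60.

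Input was listed at 0 for 19 HT-29 members (14 SNORA and 5 SCARNA), or 30.6% of the 62, near the 31.8% of all listed transcripts. Most other short RNAs were at 0 more often: 56.2% of other transcripts spanning 120 to 150 nucleotides, 61.4% of snRNAs and 54.5% of C/D snoRNAs. The annotated class misc_RNA had 46.4%, and SNORA71 RNAs 25%. A listed 0 need not be absence, since isoforms of ACTB and TPT1, which nearly every cell uses, are also listed at 0 there, and no fold is given. Most of these members were sparse in the RIP too: 17 with recovered fragments held 128 in all, 6 had 1 fragment and 12 had at most 3. Exceptions were SNORA46 at 1511 FPKM (57 fragments), SNORA54 at 1287 (22), SNORA55 at 345 (13) and SNORA79 at 224 (11). Among the scaRNAs, SCARNA4 was at 114 FPKM and SCARNA23 at 107, on 3 fragments each, SCARNA14 at 100.4 on 4, and a SCARNA21 transcript on chromosome 1 at 20.4 on 1. SCARNA2 (chromosome 1, 109642815 to 109643241), a C/D scaRNA of 427 nucleotides annotated as lincRNA, was at 106 FPKM.

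In the authors' deposited table, 3 of the 62 HT-29 members had q at or below 0.05, or 4.84%, where 3.08% of all listed transcripts did. For other transcripts spanning 120 to 150 nucleotides the share was higher, 18.8% (6 of 32), or 14.3% (4 of 28) without SNORA71. It was 13.6% for snRNAs, 0.909% for the annotated class misc_RNA and 0% for C/D snoRNAs. The 3 members were the 134-nucleotide SNORA31 with q of 8.01e-05, SCARNA2 with 0.000259 and SNORA34 with 0.00328. For SNORA74, with the largest fold, the authors' deposited table has 0.755, for SNORA80B 0.195, for SNORA26 0.218 and for the 130-nucleotide SNORA31 0.936. The deposited q therefore does not follow the fragment counts: the 2 SNORA31 transcripts have similar counts and lie at opposite ends of its range. SCARNA13 and SCARNA12 had q of 0.0529 and 0.0810 in the same table.

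In CaCo-2 fewer members were listed and their signal was weaker. Input was above 0 for 11 of 21, and in 7 of these (63.6%) the RIP was at least 2-fold higher, where 19.5% of all 7437 listed transcripts with input above 0 were (61% on the plain fold, and 7 members again). RIP levels ran from 18.3 to 1102 FPKM with a median of 168, against 9.88 to 314 with a median of 39.6 in input. The median fold was 2.66 (quartiles 1.84 and 4.57), against 2.21 for all such transcripts. Where both libraries reach 10 FPKM, 7 of 10 members passed, against 42% of all 69, with median folds of 2.67 and 1.87. The 11 members held 213 RIP fragments (95% Poisson interval 185 to 244) and 65 input fragments (50.2 to 82.8). Input rested on 1 fragment for 6 of them. The counting interval of the fold lay above 1 for 3 and above 2 for 1, so the shares above are thinly supported.

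SNORA34 led CaCo-2, with 1102 FPKM in the RIP and 314 in input, or 90 and 23 fragments, a fold of 3.51 (2.20 to 5.81). The 134-nucleotide SNORA31 was at 721 and 278 FPKM, or 50 and 17 fragments, a fold of 2.59 (1.47 to 4.79). SNORA54, listed at 0 in the HT-29 input, was at 410 and 72.8 FPKM, or 14 and 2 fragments, a fold of 5.63 (1.29 to 51.1). For the remaining 8 the interval includes 1. SNORA26 had the highest fold, 7.18, on 9 fragments against 1, and SNORA80B the lowest, 1.66, on 13 against 7.

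The 10 CaCo-2 members with input listed at 0 are 47.6% of the 21, where 29% of all listed transcripts are. Most other short RNAs were at 0 more often: 92.3% of other transcripts spanning 120 to 150 nucleotides, 94.3% of snRNAs and 61.5% of C/D snoRNAs. The annotated class misc_RNA had 45.1%, and SNORA71 RNAs 0%. Of the 9 members with recovered fragments, 7 had a single RIP fragment, and the 9 held 12 fragments in all. SNORA28 had the most, 3 fragments at 71.03 FPKM. SCARNA14 and a SCARNA21 transcript on chromosome 2 had 1 each. SCARNA2 reached 53.3 FPKM. The authors' deposited table gives it a q of 3.14e-08, the sole member (4.76% of 21) at or below 0.05, where 2.24% of all listed transcripts were. SNORA34 had q of 0.0504 and SNORA31 0.110 in the same table.

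**Figure D4:**
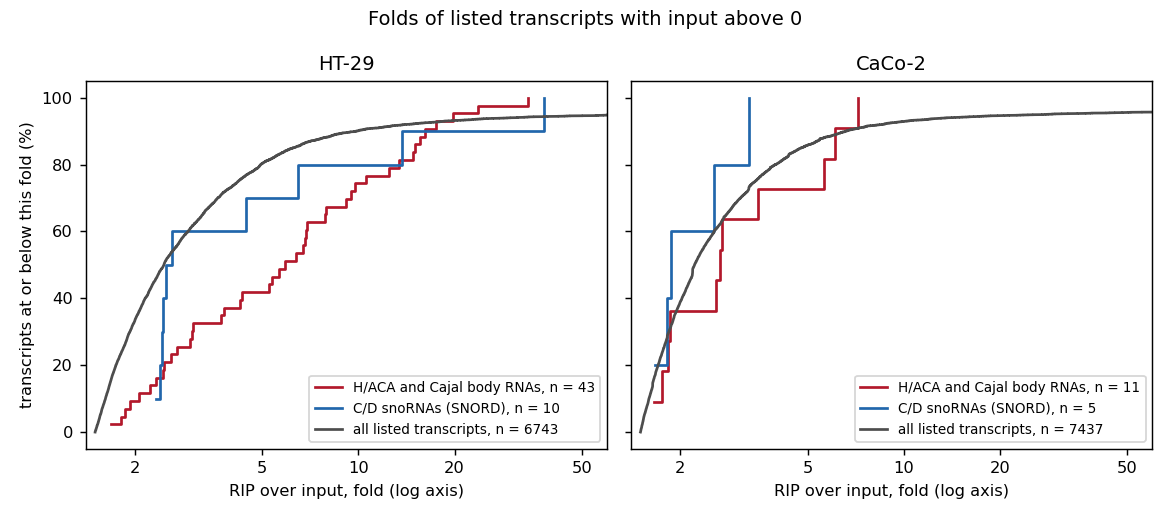
Cumulative share (%) of listed transcripts with input above 0 at or below a given RIP over input fold (log axis from 1.4 to 60), for the members, the C/D snoRNAs and all listed transcripts, each step being 1 transcript. In HT-29 the member curve lies right of the other curves over most of the range, with a median fold of 5.90 against 2.55 and 2.46; in CaCo-2 the medians are 2.66, 1.87 and 2.21.

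Other small RNAs of the same tables give the scale. C/D snoRNAs, whose names start with SNORD, passed 2-fold in HT-29 for 10 of 10 transcripts with input above 0, at a median fold of 2.55. For CaCo-2, 2 of 5 passed, at a median of 1.87. The SNORA71 RNAs, H/ACA RNAs left out by name, passed in 3 of 3 HT-29 cases, at a median of 13.7, and in 0 of 2 CaCo-2 cases. Spliceosomal and other snRNAs in HT-29 passed in 15 of 17 cases, with a median of 3.18, and in CaCo-2 in 1 of 2. Not every such class was high. Transcripts of the annotated class misc_RNA passed in 15 of 59 HT-29 cases (25.4%), at a median of 1.59. In CaCo-2 11 of 66 passed (16.7%), at a median of 2.18. Both shares are below the 35.5% and 19.5% of all listed transcripts. Length moves with these values: of all other listed HT-29 transcripts spanning 120 to 150 nucleotides with input above 0, 13 of 14 (92.9%) passed, with a median fold of 5.78, close to the members' own. Without SNORA71 it was 10 of 11, with a median of 4.47. In CaCo-2 0 of 2 such transcripts passed (0%), both SNORA71. The part of transcript length in the members' folds was not tested.

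Of the 15 transcripts listed in both lines, 12 were SNORA and 3 SCARNA RNAs. They are 24.2% of the HT-29 members and 71.4% of the CaCo-2 members, where 19.5% and 16.1% of all listed transcripts are in the other table. Input was above 0 in both lines for 9 of them and 6 of the 9 passed 2-fold in both lines. Of the 1072 such transcripts that reach 1 FPKM in each line, 13.4% did. That share is lowered by adding 1 FPKM, and the share on the plain fold was not computed. In the single lines the plain-fold shares of all listed transcripts were 66.5% for HT-29 and 61% for CaCo-2. The fold was higher in HT-29 than in CaCo-2 for 9 of 9; among all 1136 transcripts with input above 0 in both tables, that share was 60.9%. Median folds of the 9 were 10.5 for HT-29 and 2.66 for CaCo-2. The counting intervals of the 2 lines overlap for 6 of the 9 and are apart for SNORA34, SNORA80B and SNORA84.

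SNORA80B differed most, with an HT-29 fold of 19.8 (8.85 to 55.1) and a CaCo-2 fold of 1.66 (0.614 to 4.90). HT-29 had 121 RIP and 6 input fragments of it, CaCo-2 13 and 7. SNORA84 followed the same form, with 10 input fragments in each line and 96 and 20 RIP fragments, giving folds of 9.13 (4.75 to 19.6) and 1.75 (0.781 to 4.18). For SNORA34 the folds were 13.4 (6.81 to 29.9) and 3.51 (2.20 to 5.81), on input of 9 and 23 fragments. For SNORA31 of 134 nucleotides, folds of 6.84 (4.16 to 11.9) and 2.59 (1.47 to 4.79) overlap. SNORA26, SNORA72, SNORA14A, SNORA5C and SCARNA3 each had a single input fragment in CaCo-2, so their intervals there are wide, for SNORA26 0.995 to 315.

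The remaining shared transcripts had input listed at 0 in at least 1 line. SNORA13 reached 297 FPKM in the RIP of HT-29 on 10 fragments and 15.3 in the CaCo-2 RIP on 1, and SNORA28 281 on 6 and 71.03 on 3. SNORA54, SNORA79, SCARNA14 and SCARNA2 were at 1287, 224, 100.4 and 106 FPKM in the HT-29 RIP and at 410, 21.1, 12.9 and 53.3 in the CaCo-2 RIP. RIP FPKM was higher in HT-29 for 15 of 15, but the tables were normalised separately, and 1 fragment is worth about 2 times as many FPKM in HT-29 as in CaCo-2.

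**Figure D5:**
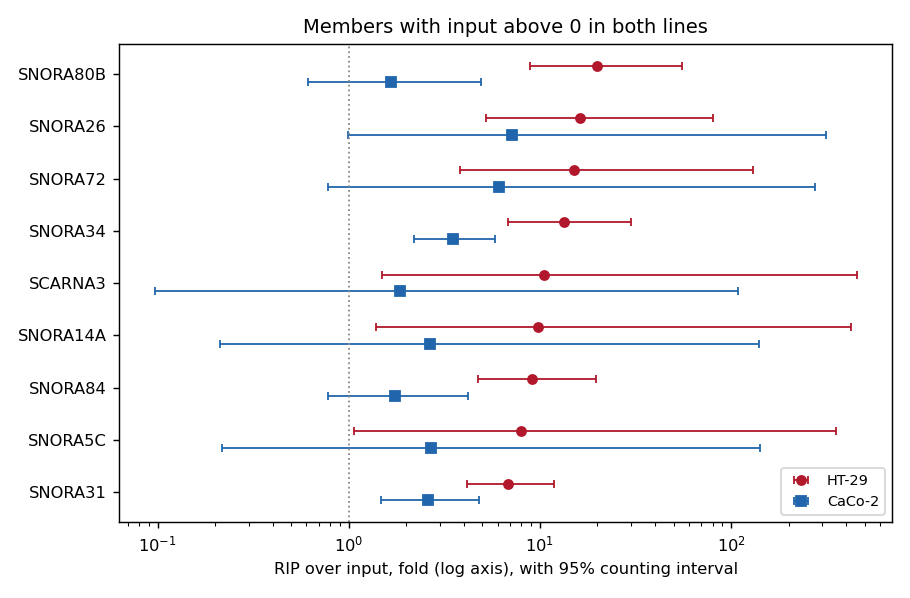
RIP over input fold (log axis) in HT-29 (circles) and CaCo-2 (squares) of the 9 members with input above 0 in both lines; bars are exact 95% counting intervals and the dotted line marks equal RIP and input. The HT-29 fold is above the CaCo-2 fold in 9 of 9, and the bars are apart for SNORA34, SNORA80B and SNORA84.

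Since most H/ACA RNAs are cut from introns, each member was set beside the transcript that surrounds it on the same strand, taking the one with the highest RIP FPKM. Such a listed transcript was found for 28 HT-29 members and 8 CaCo-2 members. Where both have a fold, the member's was higher in 15 of 18 cases in HT-29, with medians of 8.54 for members and 2.05 for the surrounding transcripts. In CaCo-2 it was higher in 5 of 7, with medians of 3.51 and 2.87. SNORA26 had 16.1 in HT-29 where DANCR, the long non-coding RNA around it, had 2.95 (15.2 against 5.16 FPKM). SNORA80B had 19.8 where ODC1, which makes polyamines, had 1.76 (10.8 against 6.11 FPKM), and SNORA74 had 33.9 where MATR3, a nuclear matrix protein gene, had 2.26 (11.8 against 5.22). The exceptions in HT-29 were SCARNA3 inside RFWD2, SNORA84 inside IARS and SNORA49 inside EP400, whose input was 0.185, 0.0326 and 0.380 FPKM.

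Matched by gene name, RefSeq gives more than 1 HT-29 member to 4 host genes. For TPT1 this rests on the shared name SNORA31 alone. The RefSeq gene is 130 nucleotides long, and only the 130-nucleotide transcript lies inside a listed TPT1 transcript. Whether the 134-nucleotide one lies in TPT1 was not checked. The 2 transcripts were close in RIP fragments, at 146 and 128, though their folds were 14.9 and 6.84. In the other 3 hosts the RIP fragments of the members were further apart. RefSeq places SNORA2A, SNORA34 and SNORA2B in KANSL2. In HT-29 their folds were 17.5 (2.76 to 729), 13.4 (6.81 to 29.9) and 2.98 (0.239 to 156), on 18, 121 and 3 RIP fragments. In TBRG4, SNORA5C had 7.95 (1.07 to 353) and SNORA5A 4.27 (2.04 to 10.02), on 8 and 40 RIP fragments. In CNOT1, SNORA46 had 57 RIP fragments with input listed at 0, and SNORA50 24 RIP against 4 input fragments. In KANSL2 and TBRG4 the intervals overlap. Overlap does not settle whether folds differ, and their difference was not tested. SNORA2B, SNORA5A and SNORA50 were named after their values were seen.

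Gene names did not always match the place of the RNA. In HT-29 54 transcripts lay on the chromosome of the RefSeq gene of that name, 7 on another chromosome and 1, SNORA74, had no RefSeq gene of exactly that name. Of the 7, 4 had input above 0, and their median fold was 2.02, with 2 past 2-fold, against 6.54 and 36 of 38 for transcripts on the matching chromosome. These 4 include SNORA40 and SNORA63, 2 of the 5 lowest folds. In CaCo-2 the 4 transcripts on another chromosome, among them 2 named SNORA72, held 5 RIP fragments in all, with input listed at 0 in each. Such transcripts may be copies of the named RNA, and how reads of near-identical copies were assigned is not given in the sources used here.

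The genes of the proteins that bind H/ACA RNAs are counted here as past 2-fold when at least 1 of their listed transcripts is. With input listed at 0, any transcript that reaches 1 FPKM in the RIP passes. Such calls are fixed by the filter and say nothing about the gene. By that count 64.5% of all 6489 listed genes passed in HT-29 and 50.2% of all 6569 in CaCo-2; where that transcript must have input above 0, the shares are 32.3% and 20.1%. All 4 core genes, DKC1, GAR1, NHP2 and NOP10, were listed in each line, of which HT-29 had 4 past 2-fold and CaCo-2 3. With input above 0 these counts are 1 and 2, so the HT-29 calls rest mostly on inputs listed at 0. In HT-29 GAR1 reached 4.18 FPKM in the RIP, its input being listed at 0, and the authors' deposited table gives it a q of 0.0386. In CaCo-2 GAR1 was at 3.45 against 0.746 FPKM. NOP10 reached 14.2 FPKM in HT-29, again beside a listed 0, and 3.96 against 1.22 in CaCo-2. NHP2 passed in HT-29 through a transcript at 2.59 against 0.587 FPKM, while its most abundant transcript was at 30.7 against 19.3, a fold of 1.59.

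HT-29 listed 5 of the 9 assembly and trimming genes, 4 of them past 2-fold, and CaCo-2 listed 6, with 2 past it. With input above 0 the counts are 2 and 1, and on the plain fold 2 and 5. These include SHQ1 in HT-29, with an input of 7.64e-05 FPKM, and PAPD5 in CaCo-2, with 0.000671 FPKM. Inputs so near 0 leave these calls as good as fixed by the filter too. The listed genes included PARN, a deadenylase that trims the tails of H/ACA RNAs. It was at 2.25 FPKM in the RIP of HT-29 and 1.83 in that of CaCo-2, both beside inputs listed at 0. Another PARN transcript in CaCo-2 was at 2.51 against 1.20 FPKM. Of 21 Cajal body and scaRNA factors, HT-29 listed 3 with 1 past 2-fold and CaCo-2 listed 5 with 2 past it. None of these calls had input above 0. On the plain fold, which needs input above 0, 2 factors passed in HT-29 and 2 in CaCo-2. The share of all genes on the plain fold was not computed, so these plain counts have no scale. WRAP53, which carries scaRNAs and telomerase RNA to Cajal bodies, was at 1.69 FPKM for HT-29 and 1.68 for CaCo-2 in the RIP. CaCo-2 also had GEMIN2, at 1.41. The 3 telomerase genes were all listed in CaCo-2, and 0 of 3 in HT-29. None passed 2-fold after 1 FPKM was added to both sides, but all 3 did on the plain fold. TERC, the telomerase RNA, which ends in an H/ACA domain, was at 1.81 against 0.807 FPKM. TEP1 was at 1.87 against 0.521 FPKM, and the authors' deposited table gives it a q of 0.0302. These levels are on the scale of long transcripts and cannot be set against the FPKM of the short members.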

How the data were processed

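RNA was sequenced from 4 libraries, a beta-catenin RIP and an input in HT-29 and CaCo-2, each 1 sample. Per the submitters' processing notes, the authors used CASAVA 1.4, Bowtie2, TopHat2 2.0.8, Cufflinks and Cuffdiff on hg19; for strand handling and read assignment between copies, no tool setting is given in the sources used here. The deposited tables, 1 per line, give FPKM per Ensembl transcript, already normalised. Their deposited p-value and q-value columns come from the authors' test of 1 library per side and are quoted, not recomputed. Depth per library is unknown from these tables, and 0 columns of sample values were left unmapped.

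Computed here, with Python 3.11.15, pandas 2.3.3 and scipy 1.17.1, were the plain fold and log2 of RIP plus 1 over input plus 1 FPKM. A filter of 1 FPKM in at least 1 library was used, and "at least 2-fold" is counted on that log2 scale. Fragments were recovered from FPKM steps at spans of 120 to 150 nucleotides. The procedure was run on simulated data built with the same form of curve that it fits. That run cannot show whether a step is 1 fragment, and its draws held more values than the CaCo-2 input does. Fold intervals are exact (Clopper-Pearson, 95%), sums have Poisson intervals, and both cover counting error only. Coordinates are hg19 from the tables, counted from 1; RefSeq (GRCh38.p14) served for names, host genes and the printed sequences. By current symbol or synonym, 61 of 62 HT-29 and 21 of 21 CaCo-2 transcripts matched RefSeq.

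Members and gene lists were chosen with earlier results of these data known. Members are named by rule: per line the 10 highest RIP FPKM, 10 highest and 5 lowest ratios with input above 0, the 5 highest RIP FPKM with input 0, each q at or below 0.05, those in both lines and each SCARNA. Alternatives changed the pseudocount, filter, classes, names, scaling and q threshold; 3 were added after seeing the data.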

Additional observations from a re-analysis of the deposited data

How the results depend on the processing

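Of 67 alternatives run over 7 results, 55 stayed the same, 12 moved and 0 reversed. Same means a count within 1.5 times the reported one, or a median log2 ratio within log2 of 1.5 of it. The 0 says little, since counts could not be labelled reversed. The listing also fixed the sign of each median unless it was set relative to all listed transcripts. Dropping the filter, or asking for 1 FPKM in both libraries, left all 43 and 11 members in place, so those settings test nothing. Set relative to the median of all listed transcripts, the HT-29 median log2 ratio was 1.72 with 29 of 43 past 2-fold, and in CaCo-2 it was 0.72 with 4 of 11. With over 1 input fragment, added after seeing the data, 24 of 26 HT-29 members and 3 of 5 CaCo-2 members passed. With members inside no other listed transcript, also added, 21 of 24 and 1 of 4 passed; in CaCo-2 the share fell too, with 6 of 7 passing among members inside one, and the cause was not tested. At q up to 0.1 the authors' deposited table gives 5 HT-29 members and 2 CaCo-2 members. With SNORA71 added it gives 5 in HT-29, and with SNORA names alone 0 in CaCo-2, where SCARNA2 is the sole call. With input above 0 in both lines, 9 of the 15 shared transcripts were left. Sparse input limits most folds: 11 of 37 HT-29 folds and 6 of 11 CaCo-2 folds rest on 1 input fragment. No paired analysis was possible because each group holds 1 library and the labels give no replicate numbers.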
